A study of Mus musculus with 6 samples.

Results

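The genes described here encode the transporters and enzymes of central carbon metabolism, measured in untreated and IFNγ-treated TC-1/A9 tumour cells. They comprise 38 listed genes of 6 steps: sugar and lactate transport, glycolysis, the entry of pyruvate into the mitochondrion, the pentose phosphate pathway, the gluconokinase Idnk, and the citrate cycle. A gene entered when a probe of the authors' value table carried its symbol in the platform annotation, and it was represented by its probe with the highest mean log2 signal over the 6 arrays. Of the 38 genes, 27 had such a probe, out of 7807 named genes in all. No probe named here carried Slc16a1, Hk1, Hk2, Gpi1, Pfkfb3, Eno1, Ldhb, Pcx, G6pdx, Aco1 or Mdh1, so these 11 genes were not analysed here. Only probes of the value table were named, so a gene too weakly detected to enter it would be missing in the same way. TC-1/A9 is a single MHC class I-deficient line derived from TC-1, which are C57BL/6 mouse lung cells transformed with the HPV E6 and E7 genes and an activated Ha-ras. Both groups carry these oncogenes, and IFNγ is the only difference between the groups that the labels name. There were 3 arrays of untreated cells and 3 of cells kept for 24 h in 50 U/ml IFNγ by the labels. The study's methods name a higher dose for the array experiment.

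Glycolysis splits glucose into pyruvate in the cytosol and yields ATP. Lactate dehydrogenase turns pyruvate into lactate, which leaves the cell, whereas pyruvate dehydrogenase sends its carbon into the mitochondrial citrate cycle. The pentose phosphate pathway branches off at glucose phosphate and supplies NADPH and ribose. Tumour cells are known for strong glucose uptake and lactate output. Gluconokinase phosphorylates gluconate to phosphogluconate, the substrate of the second dehydrogenase of the pentose phosphate pathway.

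Signals are given as log2 of the bead intensity after quantile normalization. Because a probe's brightness depends on its own sequence, the level of one gene was not ranked against that of another. Each array detected between 11504 and 12423 of its 45281 probes (detection p no greater than 0.01), and the lowest detected log2 signal of an array lay between 6.07 and 6.18. All 27 genes were detected on all 6 arrays, as were 6934 of the 7807 named genes. Entry through the value table already required detection on 2 or more of the 3 arrays in either group. IFNγ replicate 3 correlated with the other IFNγ arrays at r of 0.984 and 0.986, while IFNγ replicates 1 and 2 correlated at 0.995 and the untreated arrays with each other at 0.993 to 0.996. None of 8 epithelial markers and 3 of 8 mesenchymal markers had a probe named here. A marker that was not detected and one without a probe cannot be told apart here. The labelled origin could therefore not be checked against epithelial genes. The mesenchymal markers Vim, Fn1 and Dcn had mean log2 signals of 13.20, 8.96 and 7.03 in untreated cells and were detected on all 6 arrays. Of the other cells' markers only Csf1r, Cd68 and Kdr were measured, each detected on 2 of 3 untreated arrays and on 0, 3 and 1 of 3 IFNγ arrays. Their untreated means of 6.19, 6.29 and 6.25 lay close to the lowest detected signal.

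After IFNγ, Idnk rose and no other gene of central carbon metabolism passed the test. Of the 27 genes, 1 was higher and 0 were lower in limma at an FDR below 0.01, beside 1.27% higher and 0.0256% lower of all named genes. At an unadjusted p under 0.05, limma gave 4 of the 27 genes (Idnk, Pfkm, Slc2a1 and Pgls), beside 8.49% of named genes. The median log2 fold change over the 27 genes was 0.06, with 16 above 0 and 11 below, and that of all named genes was -0.02, with 3604 of 7807 above 0. The balance of signs turned with the scaling. Centring each array on its 75th percentile left 11 of the 27 genes above 0 and 16 below, with Tpi1, Gapdh, Pkm2, Tkt and Fh1 turning negative. For 22 of the 27 genes the 95% interval of the change lay within 1.5-fold either way, which was the case for 91.2% of named genes. The others were Idnk, Pfkm, Pgls, Slc2a1 and Pdk1. The groups did not overlap for Idnk and Gapdh, which were higher on every IFNγ array, and for Pfkm, which was lower on every one, beside 6.44% of named genes that were higher and 7.26% that were lower without overlap.

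**Figure D1:**
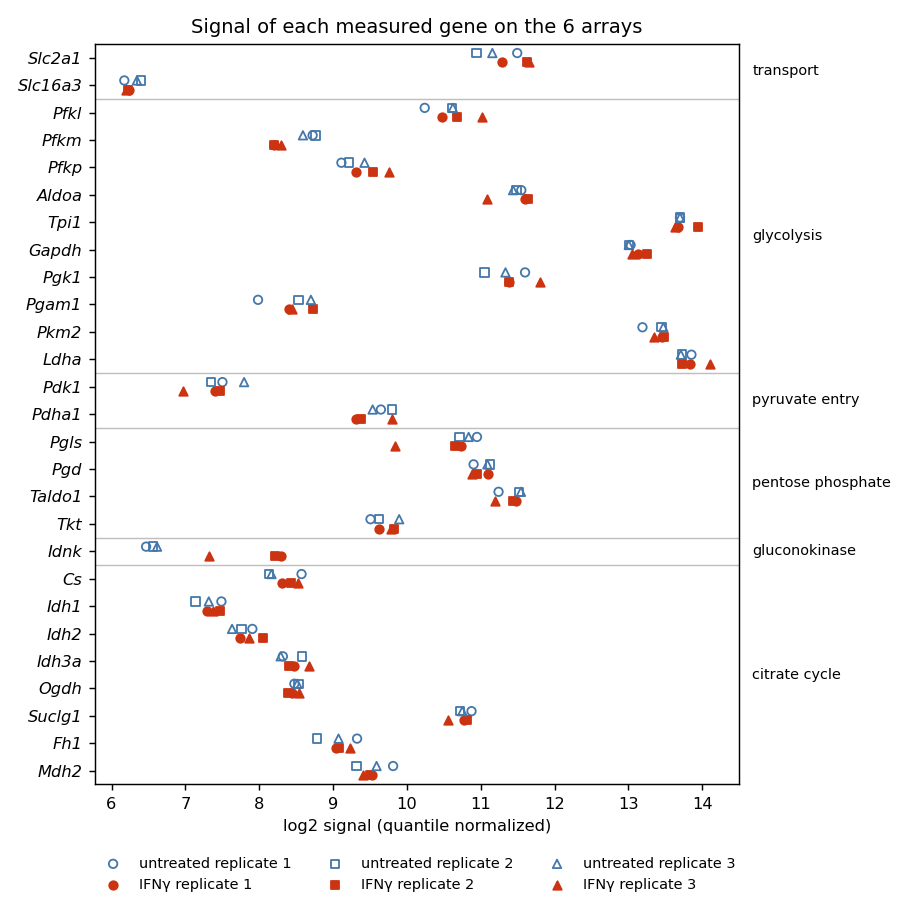
Log2 signal of each of the 27 measured genes (rows, grouped by step) on the 3 untreated arrays (open blue symbols) and the 3 IFNγ arrays (filled red symbols), with the replicate given by the shape of the symbol. The red and blue symbols of Idnk lie apart, from 6.47 to 6.62 untreated and from 7.33 to 8.29 after IFNγ, whereas those of most other genes intermingle.

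Idnk lies on chromosome 13 (58157649 to 58164693 in GRCm38.p6) and was measured by 1 probe. Untreated replicates 1, 2 and 3 gave log2 signals of 6.47, 6.56 and 6.62, and IFNγ replicates 1, 2 and 3 gave 8.29, 8.22 and 7.33. Every IFNγ array was above every untreated array, and IFNγ replicate 3 was the lowest of the treated arrays. Before normalization the bead intensities were 107, 92.4 and 87.2 without and 359, 252 and 152 with IFNγ. The untreated signals were detected but lay close to the lowest detected ones. The untreated mean was 6.55 ± 0.08 and the IFNγ mean 7.95 ± 0.54 (log2, SD, n = 3 each). The difference of 1.40 had a standard error of 0.20 and passed the test in limma with an adjusted p = 0.0011. This is a 2.63-fold change with a 95% interval of 1.96- to 3.54-fold. In such bulk RNA, more cells with the transcript and more transcript per cell cannot be told apart. The study lists Idnk among its IFNγ-raised genes, a list made from the same arrays, so its direction here is no independent evidence. Idnk was no longer called when untreated replicate 1, 2 or 3 was left out or the detection filter was dropped (adjusted p = 0.031, 0.010, 0.011 and 0.013 from limma; range over all alternatives 1.84e-12 to 0.031), with a change of 1.36 to 1.43. Without IFNγ replicate 3 its change was 1.71.

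The promoter of Idnk is shown because it belongs to the only gene of the group called higher at an FDR below 0.01. RefSeq gives 1 window for it, with 250 bases before and 50 bases after the start of transcription, on the plus strand at chr13:58157399-58157698 of GRCm38.p6:

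Idnk promoter: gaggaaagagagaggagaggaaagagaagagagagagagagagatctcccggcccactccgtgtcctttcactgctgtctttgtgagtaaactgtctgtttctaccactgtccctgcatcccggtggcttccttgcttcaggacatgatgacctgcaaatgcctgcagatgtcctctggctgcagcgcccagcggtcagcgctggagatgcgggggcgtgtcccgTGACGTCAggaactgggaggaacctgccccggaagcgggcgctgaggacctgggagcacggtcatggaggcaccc

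The capitals mark the letters of a cAMP response element, TGACGTCA, which reads the same on both strands, starts at -25 from the start of transcription and was looked for only after the sequence had been seen. These letters occur in 1.79% of 32851 RefSeq promoter windows. The letters of the gamma-activated site, TTCNNNGAA, and of the core of the interferon-stimulated response element, GAAA and GAAA with 2 bases between them, were searched on both strands and are not in this window, where they occur in 8.3% and 3.44% of all windows. Of the 27 genes, 26 had RefSeq windows, 41 in number. The gamma-activated site letters occurred in 1 of these 41 windows, belonging to Pfkm, beside 8.3% of all windows. The response element core occurred in none, beside 3.44%. TGACGTCA occurred in 6 of the 41, belonging to Idnk, Ldha, Mdh2 and Ogdh, beside 1.79%. These letters were picked from the Idnk window, which is among the 6, and windows of the same gene were counted separately. The count is therefore no test of the group. A match of letters does not show that a factor binds there.

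The enzymes around gluconokinase in the pentose phosphate pathway did not pass the test. Pgls, the lactonase that makes phosphogluconate, read 10.95, 10.71 and 10.84 on the log2 scale in untreated replicates 1, 2 and 3, while IFNγ replicates 1, 2 and 3 read 10.73, 10.66 and 9.83. The groups overlapped, and IFNγ replicate 3 stood far below all other arrays. Its change of -0.42 (standard error 0.19) had an adjusted p = 0.61 in limma and became -0.14 without IFNγ replicate 3. Pgd, the dehydrogenase that uses phosphogluconate, lay between 10.90 and 11.12 without and between 10.89 and 11.10 with IFNγ, a change of -0.06 (95% interval -0.30 to 0.18). The sugar-rearranging enzymes Taldo1 (transaldolase) and Tkt (transketolase) had changes of -0.07 and 0.07, the latter -0.0082 with centring on the 75th percentile. Their intervals, -0.33 to 0.20 and -0.20 to 0.33, lay within 1.5-fold.

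**Figure D2:**
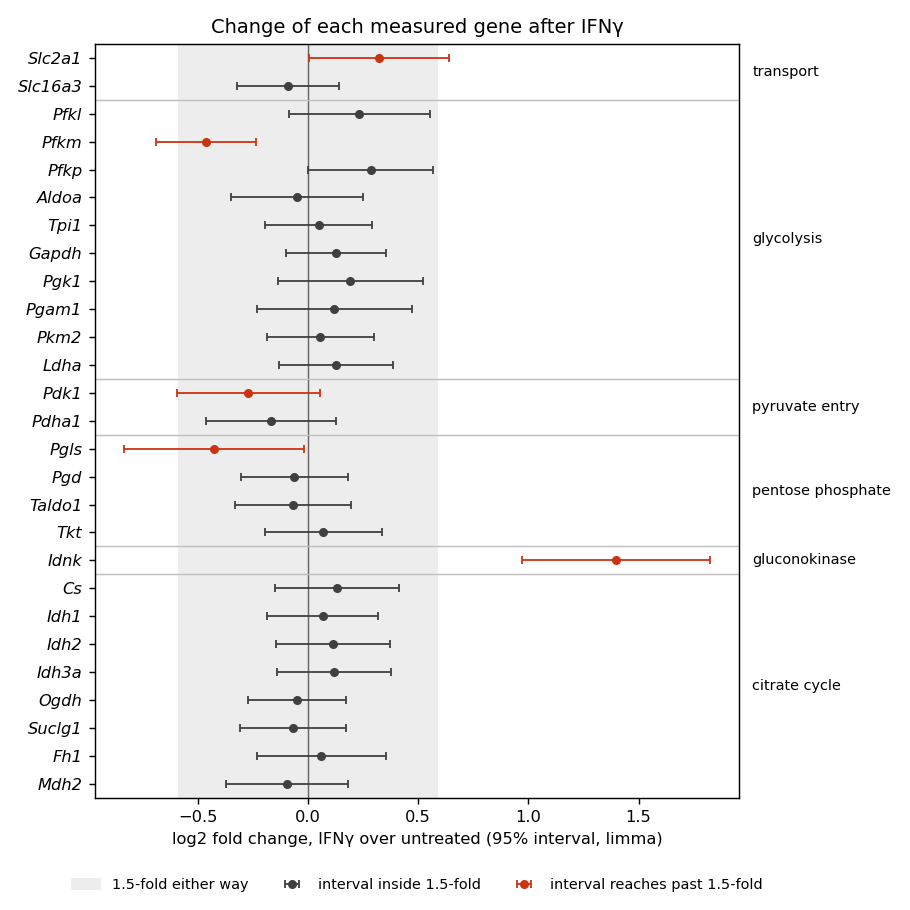
Log2 fold change of each of the 27 measured genes (IFNγ over untreated, x axis) with its 95% interval from limma, grouped by step; the grey band marks 1.5-fold either way, and red points have an interval that reaches past it. Idnk, with an interval of 0.97 to 1.82, lies wholly beyond the band, and 22 intervals lie wholly inside it.

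Glucose and lactate transporters had small changes that did not pass the test. Slc2a1, the main glucose importer of proliferating cells, had log2 signals of 11.49, 10.94 and 11.16 without and 11.28, 11.62 and 11.65 with IFNγ. IFNγ replicates 2 and 3 lay above all untreated arrays, but replicate 1 lay below untreated replicate 1. The change was 0.32 (standard error 0.15, adjusted p = 0.64 from limma). It ranged from 0.19 without untreated replicate 2 to 0.47 without untreated replicate 1. Slc16a3, a monocarboxylate transporter that exports lactate, stayed between 6.17 and 6.40 on all 6 arrays, close to the lowest detected signal, with a change of -0.09. A signal so near background can hide a change.

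In glycolysis, 10 of 16 listed genes were measured, and 8 of the 10 had a positive change, with a median of 0.12 on the log2 scale. With centring on the 75th percentile 5 of the 10 were positive and the median was 0.01. None passed the test, beside 1.27% of named genes called higher and 0.0256% lower, and 1 of 10 had an unadjusted p under 0.05 in limma, beside 8.49%. The phosphofructokinase genes, which encode the committing step, were all measured. Pfkm, the muscle-type subunit, read 8.72, 8.76 and 8.59 on the log2 scale in untreated replicates 1, 2 and 3, and IFNγ replicates 1, 2 and 3 read 8.20, 8.20 and 8.30. All IFNγ arrays lay below all untreated arrays. The untreated mean was 8.69 ± 0.09 and the IFNγ mean 8.23 ± 0.06 (log2, SD, n = 3 each). The difference of -0.46 had a standard error of 0.11 and an adjusted p = 0.050 in limma, or 0.726-fold with an interval of 0.620 to 0.850. This missed the threshold of 0.01, and it was below it only with array weights (adjusted p = 0.0015; range over all alternatives 0.0015 to 0.68).

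The 3 probes of Pfkm disagreed. The 2 dimmer ones had log2 fold changes of -0.09 (95% interval -0.36 to 0.18) and 0.00 (-0.25 to 0.26), and the mean of all 3 gave -0.18. Which transcripts each probe reads was not analysed here. RefSeq gives 4 promoter windows for Pfkm, and 1 of them, at a start inside the gene, holds the gamma-activated site letters (capitals), starting at -234 from that start of transcription. The stretch around it is shown because, among the 26 genes whose windows were searched, only Pfkm had these letters (plus strand, chr15:98108221-98108280, GRCm38.p6):

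Pfkm window: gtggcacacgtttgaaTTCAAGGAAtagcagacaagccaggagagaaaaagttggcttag

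The other phosphofructokinase genes had positive changes that did not pass the test, and that of Pfkl was -0.00107 with array weights. Pfkl, the liver-type subunit, had log2 signals of 10.24, 10.61 and 10.62 untreated and 10.47, 10.68 and 11.01 after IFNγ, a change of 0.23 (standard error 0.15, adjusted p = 0.72). Pfkp, the platelet-type subunit, had 9.11, 9.22 and 9.43 untreated and 9.31, 9.55 and 9.76 after IFNγ, a change of 0.28 (standard error 0.13, adjusted p = 0.64). The groups overlapped in both genes. The difference between the 3 subunits was not tested.

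In the lower part of glycolysis no measured gene passed the test. Gapdh, the dehydrogenase often used as a reference gene, had log2 signals of 13.03, 13.01 and 13.01 in untreated replicates 1, 2 and 3 and of 13.12, 13.25 and 13.05 after IFNγ. The groups did not overlap, but the change was only 0.13 (95% interval -0.10 to 0.35, adjusted p = 0.78), and -0.0021 with centring on the 75th percentile. Tpi1 (triose phosphate isomerase) had the same value, 13.70, on all 3 untreated arrays, since its probe held the same rank on each, and between 13.63 and 13.94 after IFNγ, a change of 0.05 that turned to -0.07 with centring on the 75th percentile. Ldha, which makes lactate, had 13.85, 13.72 and 13.71 untreated and 13.84, 13.72 and 14.10 after IFNγ, a change of 0.13 (95% interval -0.13 to 0.39, adjusted p = 0.81). IFNγ replicate 3 alone was above the untreated arrays.

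Pgk1, the first ATP-yielding enzyme of glycolysis, varied more between arrays of one group than between the groups. Its log2 signals were 11.60, 11.05 and 11.34 untreated and 11.39, 11.38 and 11.80 after IFNγ, a change of 0.19 (95% interval -0.13 to 0.52). Pgam1 (phosphoglycerate mutase) ranged from 7.98 to 8.70 untreated and from 8.41 to 8.72 after IFNγ, a change of 0.12. Aldoa (aldolase) had a change of -0.05, with IFNγ replicate 3 at 11.09 and the other 5 arrays between 11.44 and 11.64. Pyruvate kinase, listed as Pkm2 and now named Pkm, had 2 probes with changes of 0.06 and 0.08. Its brightest probe lay between 13.19 and 13.48 on all 6 arrays.

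Where pyruvate enters the mitochondrion, neither measured gene passed the test. Pdk1, the kinase that switches off pyruvate dehydrogenase, had log2 signals of 7.50, 7.35 and 7.80 untreated and 7.40, 7.47 and 6.96 after IFNγ, a change of -0.27 (standard error 0.15, adjusted p = 0.69). The groups overlapped, and the change was -0.11 without IFNγ replicate 3. Pdha1, a catalytic subunit of pyruvate dehydrogenase, had 9.65, 9.80 and 9.54 untreated and 9.31, 9.38 and 9.80 after IFNγ, a change of -0.17 (standard error 0.14, adjusted p = 0.77). Here IFNγ replicate 3 was the highest of the treated arrays and lay level with the highest untreated one.

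In the citrate cycle no measured gene passed the test, beside 1.27% of named genes called higher and 0.0256% lower. Of its 10 listed genes 8 were measured, with log2 fold changes from -0.10 to 0.13. Their median was 0.06, and -0.03 without untreated replicate 2, when 3 of the 8 were above 0. None had an unadjusted p under 0.05 in limma (lowest adjusted p = 0.82), beside 8.49% of named genes. All 8 intervals lay within 1.5-fold, beside 91.2% of named genes. Cs (citrate synthase) had log2 signals of 8.57, 8.13 and 8.17 untreated and 8.31, 8.43 and 8.53 after IFNγ, the largest positive change of the step at 0.13 (95% interval -0.15 to 0.41). Idh1, the cytosolic isocitrate dehydrogenase that yields NADPH, read 7.49, 7.14 and 7.32 untreated and 7.29, 7.47 and 7.38 after IFNγ, a change of 0.07 (95% interval -0.19 to 0.32, adjusted p = 0.91). The mitochondrial enzymes Idh2 and Idh3a had changes of 0.12 each. Ogdh, a subunit of the oxoglutarate dehydrogenase complex, had the narrowest spread of the step, from 8.39 to 8.54 over all 6 arrays, with a change of -0.05. Suclg1 (succinate-CoA ligase) and Fh1 (fumarase) had changes of -0.07 and 0.06. Mdh2, the mitochondrial malate dehydrogenase, read 9.81, 9.32 and 9.59 untreated and 9.53, 9.50 and 9.41 after IFNγ, the most negative change of the step at -0.10 (95% interval -0.37 to 0.18). Its untreated arrays spanned the treated ones.

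**Figure D3:**
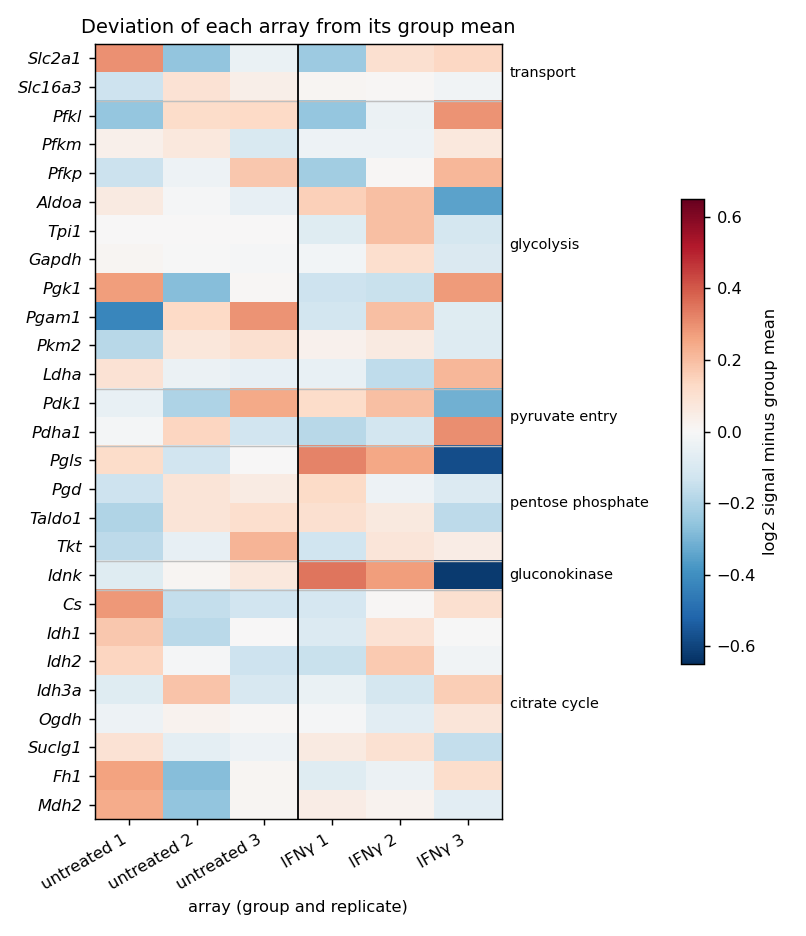
Deviation of each array (columns) from the mean of its group, in log2 units, for each of the 27 measured genes (rows); red is above and blue below the group mean. In IFNγ replicate 3 the strongest deviations are those of Idnk (-0.62) and Pgls (-0.57), while in untreated replicate 1 Pgam1 is the lowest (-0.42).

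The spread between untreated replicates was wider for these genes than over the array. The median SD of the 27 genes was 0.16 among untreated arrays and 0.15 among IFNγ arrays, beside 0.10 and 0.15 for all named genes (a description, without a test). Untreated replicate 1 lay above its group mean in Slc2a1 (by 0.30), Cs (0.28), Pgk1 (0.27), Fh1 (0.26) and Mdh2 (0.24), and untreated replicate 2 lay below it in each, with deviations of -0.26, -0.16, -0.28, -0.28 and -0.25. The same untreated replicate 1 was the lowest of its group in Pgam1 (-0.42), Pfkl (-0.25), Taldo1 (-0.19) and Pkm2 (-0.18). In IFNγ replicate 3, Idnk, Pgls, Aldoa (-0.35) and Pdk1 (-0.31) were low, whereas Pdha1 (0.30), Pfkl (0.29), Pgk1 (0.28), Pfkp (0.22) and Ldha (0.22) were high. Of the 99 named genes called higher after IFNγ, 32 had their lowest treated value in IFNγ replicate 3, 33 in replicate 2 and 34 in replicate 1. What sets this array apart was not tested.

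Other genes of the same pathways, taken from wider lists, did not pass the test either. Of 96 genes in 6 lists, 35 had a tested probe, and limma called 0 at an FDR below 0.01 (1.27% higher and 0.0256% lower of all named genes) and 1 at an unadjusted p under 0.05 (8.49% of all named genes). A count of 0 among so few genes is near these shares. The gene under 0.05 was Eno3, an enolase, with a change of -0.24 (adjusted p = 0.63) and all IFNγ arrays below all untreated ones. Among the other glycolytic genes Adpgk, an ADP-dependent glucokinase, had -0.12, and of the transporters Slc2a3 (glucose) and Slc25a1 (mitochondrial citrate) had -0.09 and -0.07. The pyruvate dehydrogenase phosphatase genes Pdpr and Pdp2 had 0.13 and 0.10. In the pentose phosphate list Rpia (ribose phosphate isomerase) had -0.25 and Prps1 (phosphoribosyl pyrophosphate synthetase) -0.11. In the citrate cycle list Sdhc, a subunit of succinate dehydrogenase, had -0.21 and Got2, the mitochondrial aspartate aminotransferase, 0.16. In the list of gluconeogenesis and glycogen Pgm1 (phosphoglucomutase) had 0.14 and Gyg (glycogenin) 0.06. All 35 intervals lay within 1.5-fold, beside 91.2% of named genes.

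**Figure D4:**
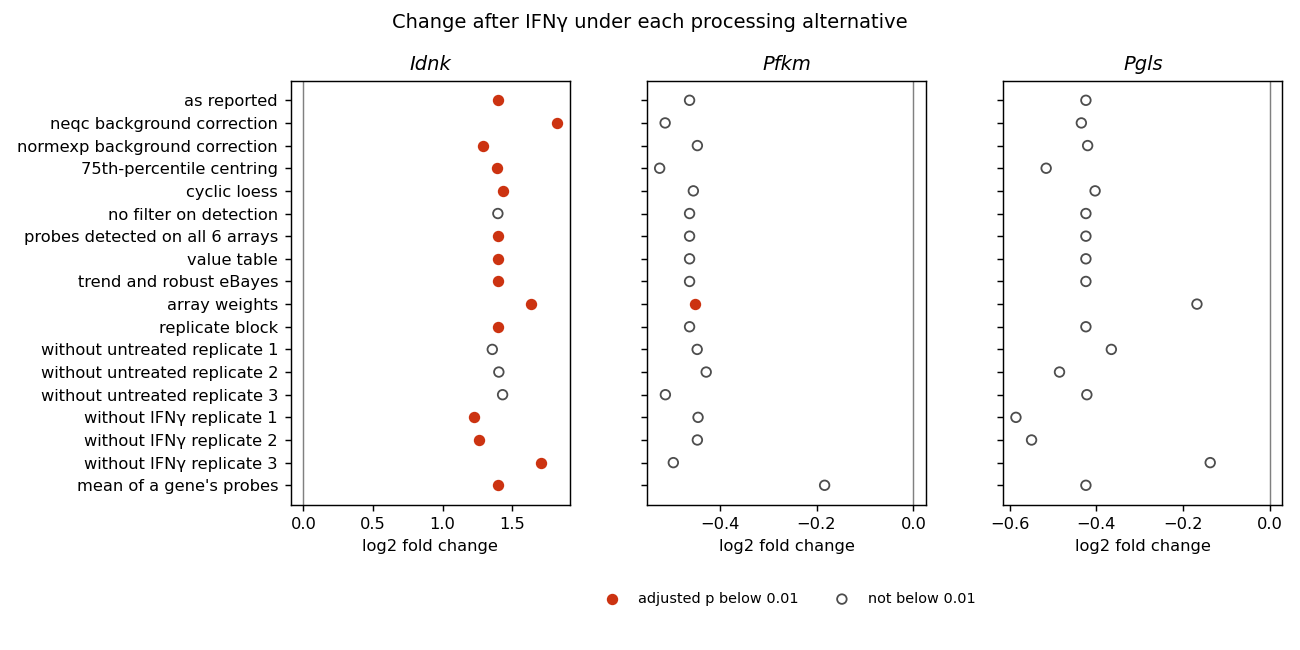
Log2 fold change (x axis) of Idnk, Pfkm and Pgls under each processing alternative (rows), with filled points where the adjusted p from limma was below 0.01. Idnk stays between 1.22 and 1.82, Pfkm moves to -0.18 when its probes are averaged, and Pgls moves to -0.14 without IFNγ replicate 3.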

How the data were processed

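The authors put RNA of TC-1/A9 cells on Illumina bead arrays (Mouse WG6), with 3 untreated and 3 IFNγ-treated samples, cultured in triplicate per the methods. The deposited table holds linear bead intensities from BeadStudio, not yet normalized, and the authors' detection p-value for each of 45281 probes on each array. The deposited value table holds log2 intensities that the authors quantile-normalized with lumi and limma (versions are not given in the sources used here), for the 12421 probes that 2 or more of the 3 arrays in either group detected. Groups came from the sample labels. Probe names came from the platform annotation, of which 664 symbols were updated through RefSeq gene identifiers; for 27 of 38 listed genes a tested probe was found.

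Intensities were quantile-normalized over all probes and taken as log2, which gave the value table's values to within 4.97e-14. The 13545 probes with a detection p of 0.01 or less on at least 1 array were tested with limma 3.58.1 in R 4.3.3 (lmFit and eBayes, Benjamini-Hochberg over all tested probes, called at an FDR below 0.01). A gene was represented by its brightest probe. Intervals are 95% intervals of the fit. Alternatives were neqc and normexp background correction, centring on the 75th percentile, cyclic loess, other detection filters, the value table, trend and robust eBayes, array weights, a replicate block, each array left out, an FDR of 0.05, and the mean of a gene's probes. The fit was tested on simulated data with known fold changes. Genes given with full values were the called ones, the 5 most positive and 5 most negative of the others, and Slc2a1, Gapdh, Ldha, Pdk1 and Idh1. The genes, lists and this rule were chosen with earlier results of these data known. Motifs were counted in RefSeq promoter windows of GRCm38.p6. With 6 arrays the number of arrays limits the precision.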

Additional observations from a re-analysis of the deposited data

How the results depend on the processing

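Idnk kept its direction under every alternative run, with log2 fold changes from 1.22 to 1.82. It lost its call without a filter on detection (1.40, adjusted p = 0.013, so 0 genes of central carbon metabolism were called) and without any 1 untreated array. Over the settings that leave out 1 array its change ran from 1.22 to 1.71 and its limma-adjusted p from 1.04e-09 to 0.031, and 0 to 1 of the 27 genes were called higher. With array weights 1 gene, Pfkm, was called lower; it was called under no other alternative. The count of probes higher after IFNγ was 141, and 78 with 75th-percentile centring, 74 among probes detected on all 6 arrays, 248 with array weights and 83 to 172 with 1 array left out. The count of probes lower was 2, and 1 with neqc, 0 with 75th-percentile centring, 1 among probes detected on all 6 arrays, 1 with trend and robust eBayes, 35 with array weights, 7 at an FDR of 0.05 and 0 to 6 with 1 array left out. The cause of these shifts was not tested. Centring on the 75th percentile turned the median change of the 27 genes from 0.06 to -0.01, while that of all probes went from -0.01 to -0.04, and the count of genes above 0 from 16 to 11. With 1 array left out that median stayed between 0.02 and 0.10, and the number of genes with an interval within 1.5-fold ran from 18 to 25. Replicate numbers did not pair the arrays: the correlations of same-numbered deviations were -0.19, 0.04 and -0.02, and no untreated array matched its own number best. With the replicate block the change of Idnk was 1.40 (adjusted p = 1.57e-05) and no call among the 27 genes changed. Genes with signals close to background, such as Slc16a3 and untreated Idnk, can have their changes understated.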

Other observations

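Genes of hypoxia-inducible factor 1 and its targets, and Myc with related regulators, did not pass the test after IFNγ. Hypoxia-inducible factor 1 and Myc are known to drive glycolytic genes, but no set of Myc target genes was listed. Of 22 listed genes 15 were measured, and limma called 0 at an FDR below 0.01 (1.27% higher and 0.0256% lower of all named genes) and 0 at an unadjusted p under 0.05 (8.49% of all named genes). Counts of 0 among so few genes are near these shares. Their median log2 fold change was -0.01, with 6 above 0 and 9 below, and 13 of 15 intervals lay within 1.5-fold, beside 91.2% of named genes. The exceptions were Hif1a, the oxygen-regulated subunit of the factor, and Ndrg1, a hypoxia-induced gene. Hif1a had log2 signals of 6.55, 6.30 and 6.34 untreated and 6.55, 6.44 and 7.26 in IFNγ replicates 1, 2 and 3, a change of 0.35 (95% interval -0.03 to 0.73, adjusted p = 0.67). IFNγ replicate 3 alone was above the untreated arrays. Ndrg1 had a change of 0.29 (95% interval -0.06 to 0.64), with IFNγ replicate 2 the highest array at 8.49.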
